A study of Anopheles gambiae with 36 samples.

Results

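The sex determination genes doublesex (AGAP004050), fruitless (AGAP000080) and femaleless (AGAP013051) of Anopheles gambiae were examined isoform by isoform in the RNA of male and female mosquito ears. Members were all annotated transcripts of these genes, which gave 8 of the 15863 transcripts and 3 of the 13832 genes in the table. There were 2 transcripts of doublesex, 5 of fruitless and 1 of femaleless, named by the gene and a suffix (RA, RB and so on). Of the 8 transcripts, 6 passed the filter on low counts and were tested. The remaining pair, fruitless RA and RB, had a count of 0 in every library. The sources used here do not give which doublesex transcript is the male form and which the female form, so both are called by their suffix.

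In insects, doublesex is the last switch of the sex determination cascade. Its primary transcript is spliced differently in males and females, and the resulting DM-domain transcription factors share a DNA-binding part but end differently. The gene fruitless encodes BTB zinc finger transcription factors, and in Drosophila its male-specific proteins organise the neurons of courtship. The product of femaleless is an RNA-binding protein that female Anopheles need for the female splicing of doublesex and fruitless and for survival.

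Each library held RNA of the second antennal segments of 35 mosquitoes of the Kisumu strain, pooled by sex and time of collection. This segment hosts the Johnston's organ, the auditory organ of the mosquito. Male and female mosquitoes had been kept apart since the pupal stage under cycles of 12 h of light and 12 h of darkness with ramped dawn and dusk, and were collected on the fourth day at ZT0, ZT4, ZT8, ZT12, ZT16 and ZT20, where ZT, zeitgeber time, is the number of hours since the lights came on. There were 3 libraries per sex and time point. The male ZT12 replicate 3 library, which the study discarded, was left out, so that 17 male and 18 female libraries remained of 36. Nothing in the labels says how the pools relate to separate cohorts, and the p-values therefore measure the spread between these pools. In such bulk RNA, fewer cells of a type and less RNA per cell cannot be told apart.

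Libraries summed to between 11074632 and 18255021 estimated counts in males (median 14168409) and between 9341559 and 17815875 in females (median 14020560.5). The libraries held no molecular identifiers. Levels are given as normalised counts, that is estimated counts divided by the size factor of the library, and are not corrected for transcript length, so they are compared between samples and not between genes. Opsin transcripts, which encode the photopigments of the eye, took 1.39% to 13.7% of all counts in males (median 4.58%) and 9.37% to 45.6% in females (median 27.0%), summed over 8 genes. Markers of other cell types were not analysed here. Most of the transcriptome differed between the sexes. With edgeR's quasi-likelihood test and sex and time point as the terms of the model, 8664 of 12898 transcripts passed an adjusted p of 0.05.

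Among the 6 tested transcripts, 3 were higher in males (fruitless RC, fruitless RE and femaleless RA), where 33.5% of all tested transcripts were. A single one, doublesex RB, was lower in males, where 33.7% of all transcripts were. The other 2, doublesex RA and fruitless RD, did not pass the test. Summed over isoforms, 2 of the 3 genes were higher in males (35.4% of 11073 genes tested) and 1 was lower (35.2%). Libraries of the sexes did not overlap in 2 of the 6 transcripts. These were fruitless RE, higher in every male library as were 4.39% of all transcripts, and doublesex RB, lower in every male library as were 5.14%.

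The isoforms of doublesex differed sharply from each other in how they divided the sexes. Male libraries held 54.4 to 350 normalised counts of RB (median 117), against 1458 to 5442 in female libraries (median 3954). Every male library was thus below every female one, and the gap between the highest male and the lowest female value was wider than the whole male range. Mean counts of RB were 150 ± 89.1 over the 17 male libraries and 3602 ± 1259 over the 18 female libraries (SD). On the log2 scale, males over females came to -4.58 (standard error 0.26, edgeR quasi-likelihood test with Benjamini-Hochberg adjustment, adjusted p = 1.19e-15). Of the 12898 transcripts tested, 105 had a lower log2 fold change.

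RA of the same gene was abundant in both sexes. Its normalised counts ran from 1334 to 2870 in males (median 1944) and from 927 to 4945 in females (median 2701). The male range lay entirely within the female one. With means of 1963 ± 423 in males and 2616 ± 1107 in females (SD), RA had a log2 fold change of -0.38 (SE 0.17) and missed the threshold (edgeR quasi-likelihood adjusted p = 0.0521). DESeq2's Wald test on the same libraries put RA at -0.42 and past the threshold (adjusted p = 0.0244). Scaling by total counts alone turned the sign to 0.070 (edgeR adjusted p = 0.781). That scaling moved the median of all transcripts to 0.52, against -0.0039 with TMM scaling, and the share of calls that were higher in males to 74.2%, against 49.9%. For both isoforms together, doublesex had 2113 ± 484 normalised counts in males and 6217 ± 2280 in females (SD), and its log2 fold change was -1.53 (SE 0.16, edgeR quasi-likelihood adjusted p = 3.81e-10).

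**Figure D1:**
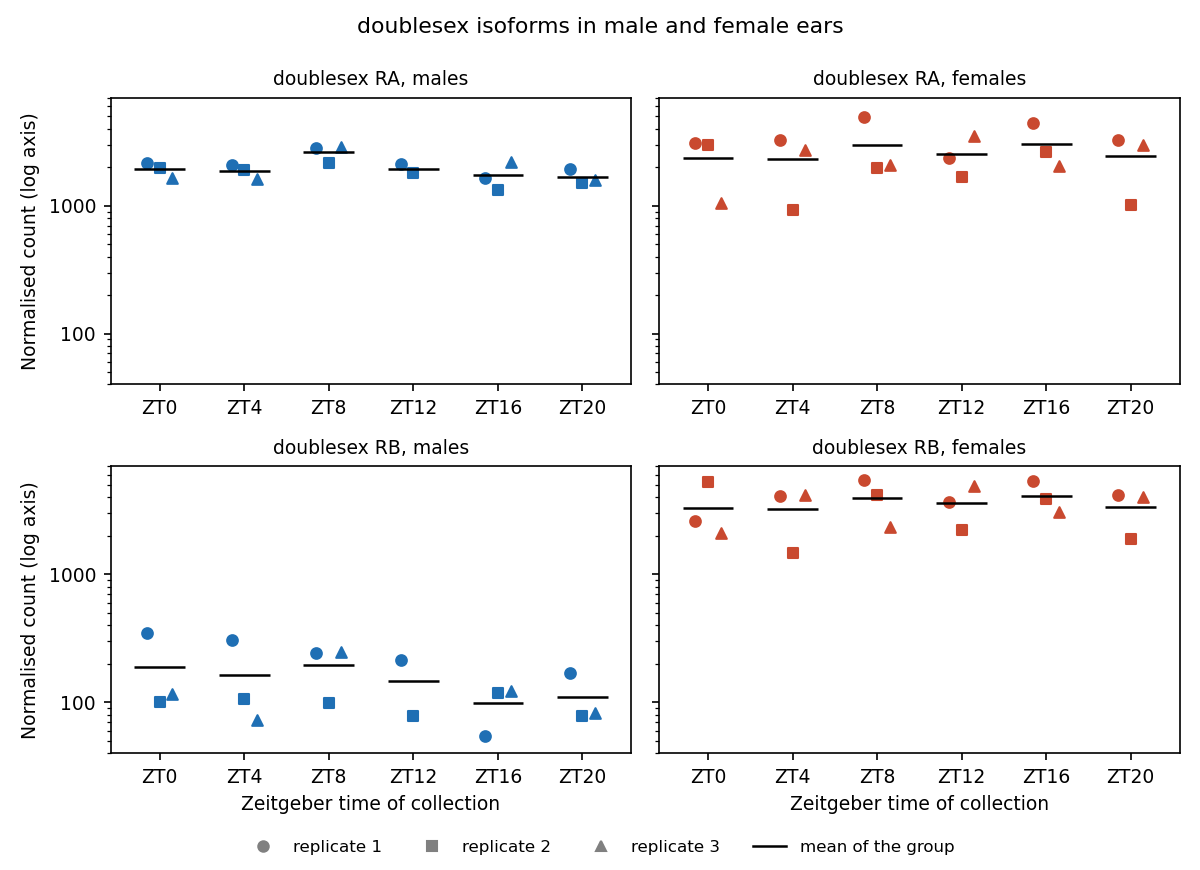
Normalised counts (log axis) of doublesex RA (top) and RB (bottom) in each library of males (left) and females (right) by zeitgeber time, with symbols for replicates and a bar for the mean of each group. RB lay between 54.4 and 350 in all male libraries and between 1458 and 5442 in all female libraries, whereas the ranges of RA overlapped.

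The share of RB in the counts of doublesex was also compared. This share does not depend on how libraries are scaled to each other. It still rests on how the quantification divided the reads that fit both RA and RB. RB made up 3.20% to 13.9% of doublesex counts in males (median 5.30%) and 45.5% to 67.8% in females (median 58.8%). By estimated counts, doublesex was thus mostly RA in male libraries and was divided between RA and RB in female libraries. These counts are not corrected for transcript length. The mean share was 6.81 ± 3.04% over male and 58.6 ± 5.51% over female libraries (SD, n = 17 and 18), a difference of -51.8 percentage points (permutation test with 100000 resamples, two-sided p = 2e-05, the smallest it can give).

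A test of isoform use across the table, edgeR's diffSpliceDGE, was run on the 1249 genes with at least 2 transcripts past the filter. It called 43.3% of them, so calls of isoform use between the sexes were common in this model. Of the 2 genes it could test here, it called doublesex (adjusted p = 1.42e-19) and did not call fruitless (adjusted p = 0.676). For doublesex, 16 genes had a smaller p. Per transcript, it called 2 of the 5 tested isoforms of these genes, where it called 20.8% of 3080 transcripts. Relative to the gene, RA was higher in males by 0.79 on the log2 scale (adjusted p = 1.04e-05, diffSpliceDGE) and RB had a log2 fold change of -2.12 (adjusted p = 1.38e-17, diffSpliceDGE). With the opsin level as a covariate the relative value of RA was 0.78 and no longer passed (adjusted p = 0.0568, diffSpliceDGE). That covariate left 212 genes called for isoform use, against 541 without it.

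The share of RB was far apart between the sexes at every time point. Its male means were 8.47%, 7.52%, 6.71%, 6.68%, 5.51% and 5.94% from ZT0 to ZT20, with 2 libraries at ZT12 and 3 at the other time points. Its female means were 58.7%, 58.9%, 57.7%, 58.7%, 58.1% and 59.4% in the same order. The highest male shares were those of ZT0 replicate 1 (13.9%) and ZT4 replicate 1 (13.0%), so that the early male means rest on 1 library each. No test was made of the shares over time.

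**Figure D2:**
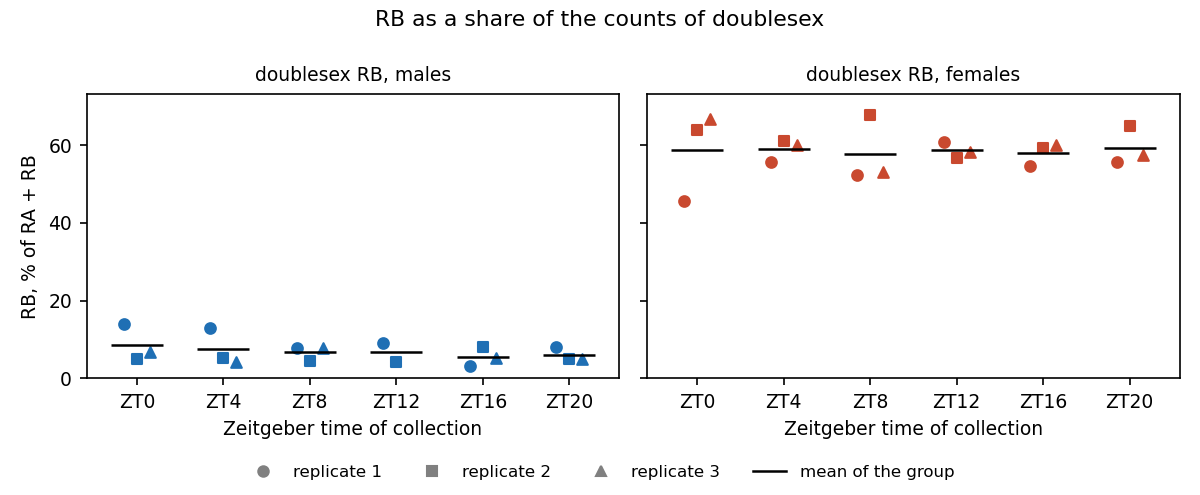
Share of RB in the estimated counts of doublesex (RA and RB summed, in %) in each library of males (left) and females (right) by zeitgeber time, with symbols for replicates and a bar for the mean of each group. Male shares stayed between 3.20% and 13.9% and female shares between 45.5% and 67.8%.

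RB was low in male libraries, but its estimated count was never 0. How much of that count came from dividing reads that fit both RA and RB was not tested. The male mean of RB was 4.17% of its female mean. For comparison, all transcripts with a female mean of at least 1000 normalised counts were ranked by the same percentage. This measure was chosen after the values had been seen. The set was picked by the female level alone, through which doublesex RB entered it, so a rank in it is only a description. Of these 2254 transcripts, 18 had a lower percentage. The lowest, AGAP009877-RA, had a mean of 1.11 normalised counts in males and 4319 in females, which is 0.0256%, and the next, AGAP010548-RA, had 1.34 in males and 1407 in females, which is 0.0951%.

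In contrast to doublesex, the 2 well-measured isoforms of fruitless moved together. RE, the most abundant one, had 223 to 532 normalised counts in males (median 339) and 45.0 to 217 in females (median 114). Its lowest male library, ZT16 replicate 2, lay just above its highest female library, ZT20 replicate 3, so the sexes were separate but close at the border. RE averaged 356 ± 98.0 in males and 121 ± 47.1 in females (SD, n = 17 and 18). This is a log2 fold change of 1.59 (SE 0.17, edgeR quasi-likelihood adjusted p = 2.00e-09).

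RC of fruitless had 91.3 to 209 normalised counts in males (median 159) and 30.7 to 98.4 in females (median 62.2). Only 1 male library, ZT16 replicate 1, was below the highest female library, ZT8 replicate 1. RC averaged 155 ± 35.7 in males and 63.9 ± 20.03 in females (SD). Its log2 fold change was 1.31 (SE 0.13, edgeR quasi-likelihood adjusted p = 5.18e-10). Summed over isoforms, fruitless had 520.3 ± 124 normalised counts in males and 190.1 ± 63.0 in females (SD), and the log2 fold change was 1.48 (SE 0.14, edgeR quasi-likelihood adjusted p = 7.47e-11).

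RD of fruitless was rare. It had 9.69 ± 7.24 normalised counts in males and 5.64 ± 6.48 in females, and its estimated count rounded to 0 in 1 male library and 8 female libraries. The log2 fold change of 1.25 had a standard error of 0.60 and missed the threshold (edgeR quasi-likelihood adjusted p = 0.0653), while DESeq2's Wald test called it at 1.25 (adjusted p = 0.0274). The sexes were apart in RD at ZT0 only. They overlapped at ZT4, ZT8, ZT12 and ZT20, and at ZT16 a male library was at 0, as were the female ones. The share of all transcripts without overlap was not computed by time point. The interaction of sex and time was not called for RD (edgeR quasi-likelihood adjusted p = 0.645). At ZT0 RD had 11.01, 23.7 and 19.8 normalised counts in males, against 0, 0.0014 and 0 in females. At ZT8 the sexes overlapped, with 19.7, 12.2 and 13.5 in males and 20.7, 10.6 and 15.9 in females. At ZT16 it had 2.80, 0 and 3.56 in males and 0 in all 3 female libraries. Values this low rest on few reads per library.

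How fruitless counts were divided among its annotated isoforms differed little between the sexes. RE made up 68.0% of them on average in males and 62.5% in females. RC made up 30.1% in males and 34.6% in females, and RD made up 1.87% in males and 2.89% in females. The differences were 5.50, -4.48 and -1.02 percentage points, with two-sided permutation p-values of 0.042 for RE, 0.0564 for RC and 0.237 for RD (100000 resamples, not adjusted). The gene-level test of isoform use, in which 1027 of 1249 genes had a smaller p than fruitless, did not call this difference. The sources used here do not give which fruitless isoforms, if any, are sex-specific. These shares therefore cannot tell whether fruitless was spliced differently by sex.

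The female splicing factor gene femaleless was higher in male ears. Its only annotated transcript had 489 to 764 normalised counts in males (median 650) and 207 to 968 in females (median 319). A single female library, ZT16 replicate 1, gave the value of 968 and was above every male library. Without it, the highest female value was 439.5, below the lowest male one, and the female mean was 324 ± 65.7 (SD, n = 17). With all libraries femaleless averaged 649 ± 66.7 in males and 360 ± 165 in females (SD, n = 17 and 18). This gave a log2 fold change of 0.93 (SE 0.13, edgeR quasi-likelihood adjusted p = 1.26e-07). The library with 968 counts of femaleless had 74.9 normalised counts of fruitless RC and 120.0 of fruitless RE, within the range of the other female libraries. It had 5356 of doublesex RB and 4449 of doublesex RA. Both were also within that range but near its top, where the highest female values were 5442 for RB and 4945 for RA.

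**Figure D3:**
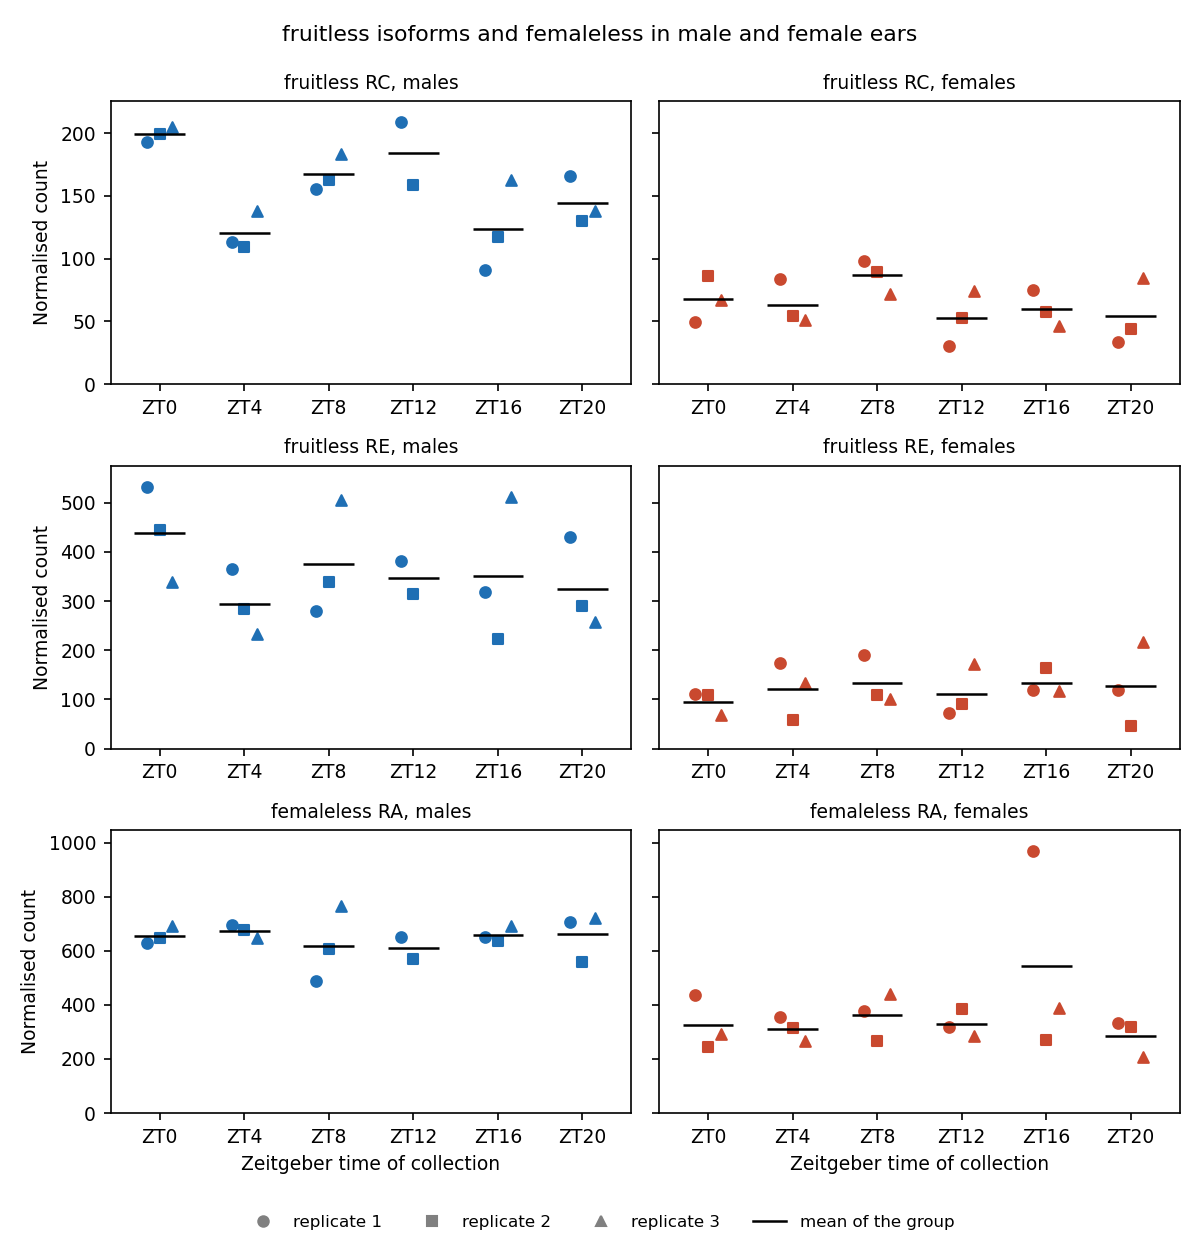
Normalised counts of fruitless RC (top), fruitless RE (middle) and femaleless RA (bottom) in each library of males (left) and females (right) by zeitgeber time, with symbols for replicates and a bar for the mean of each group. Male values were higher at every time point for both fruitless isoforms, and the female library at 968 at ZT16 is the only female one of femaleless above 439.5.

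The difference between the sexes was then asked of each time point on its own, with 3 libraries against 3 and, at ZT12, 2 male against 3 female libraries. Of the 6 transcripts, 5 were called at ZT0 (31.9% of all transcripts). At the other time points 4 of the 6 were called, against 27.3% of all transcripts at ZT4, 29.2% at ZT8, 28.7% at ZT12, 24.8% at ZT16 and 26.7% at ZT20. In each case, doublesex RB, fruitless RC and fruitless RE were among them, and doublesex RA was not. Femaleless was called at every time point but ZT16. Fruitless RD was called at ZT0 (edgeR quasi-likelihood adjusted p = 0.00209) and at ZT16 (edgeR quasi-likelihood adjusted p = 0.0455), where its female counts were at or near 0, and at no other time point.

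For doublesex RB the log2 fold change of males over females was -4.13 at ZT0, -4.27 at ZT4, -4.30 at ZT8, -4.59 at ZT12, -5.34 at ZT16 and -4.91 at ZT20. Males were thus far lower in RB at every hour sampled. For fruitless RE it was 2.22 at ZT0, 1.33 at ZT4, 1.55 at ZT8, 1.67 at ZT12, 1.44 at ZT16 and 1.39 at ZT20. For fruitless RC it was 1.59, 0.98, 1.01, 1.83, 1.10 and 1.44 at the same time points. Both isoforms were higher in males throughout the day. For femaleless it was 1.06 at ZT0, 1.16 at ZT4, 0.84 at ZT8, 0.92 at ZT12 and 1.25 at ZT20, all called, and 0.34 at ZT16, not called (edgeR quasi-likelihood adjusted p = 0.416). Without the female ZT16 replicate 1 library, an alternative chosen after seeing the data, the ZT16 value was 1.05 and was called (edgeR adjusted p = 0.00374), and that of fruitless RE was 1.36 and was not (edgeR adjusted p = 0.0597). For doublesex RA the values ran from -0.77 at ZT16 to -0.14 at ZT8.

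Whether any of these transcripts changed over the day was tested within each sex. In males, 0 of the 6 passed edgeR's quasi-likelihood test over the 6 time points, where 1.67% of 12360 transcripts did. In females, 0 of the 6 passed, where 1.23% of 12322 did. Summed over isoforms, 0 of the 3 genes passed in males (2.24% of 10603 genes) or in females (1.88% of 10588 genes). Before adjustment, edgeR's test gave 2 transcripts a p under 0.05 in males, fruitless RC (adjusted p = 0.321) and doublesex RA (adjusted p = 0.515), among 1143 of all 12360 transcripts. In females edgeR's test gave 1, fruitless RD (adjusted p = 0.268), among 1120 of 12322. DESeq2's likelihood ratio test also called 0 of the 6 in either sex. A test of the interaction of sex and time called 0 of the 6, where it called 1 of 12898 transcripts (0.00775%). Of the 6, fruitless RD alone had an unadjusted p under 0.05 there (edgeR adjusted p = 0.645), as did 583 of all 12898 transcripts. A dependence of these transcripts on time of day was thus not detected by these tests.

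The means behind these tests differed between time points to a varying degree. The highest and lowest means were picked after the values had been seen, and no member was called over time. In males, RC of fruitless had its highest mean at ZT0 (199 ± 5.97, SD, n = 3) and its lowest at ZT4 (120.1 ± 15.5, SD, n = 3). In females its means ran from 52.6 ± 21.9 at ZT12 to 86.7 ± 13.3 at ZT8 (SD, n = 3). For doublesex RA, the male mean was highest at ZT8 (2623 ± 414, SD, n = 3) and lowest at ZT20 (1681 ± 232, SD, n = 3). For doublesex RB, male means ran from 97.8 ± 37.7 at ZT16 to 196 ± 83.6 at ZT8 (SD, n = 3), with overlapping libraries. For femaleless, male means stayed between 611 ± 55.4 at ZT12 (SD, n = 2) and 673 ± 23.3 at ZT4 (SD, n = 3). Its female means ran from 285 ± 68.2 at ZT20 to 543 ± 373 at ZT16 (SD, n = 3), where the library at 968 is included. Fruitless RD had male means of 2.12 ± 1.88 at ZT16 to 18.2 ± 6.51 at ZT0 and female means of 0 at ZT16 to 15.7 ± 5.05 at ZT8 (SD, n = 3).

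The opsin share separates the sexes nearly as the outcome does, since the male and female ranges overlap only between 9.37% and 13.7%. The relation of each tested transcript but fruitless RD to it was therefore computed within each sex. This gave 10 relations of log2 normalised count and log2 opsin level. In males, r was -0.021 for doublesex RB and -0.19 for RA over 17 libraries, and neither passed a permutation test (adjusted p = 0.935 and 0.803). In females, libraries with more opsin RNA held less of both isoforms. For RB, Pearson's r was -0.69 (permutation p = 0.00143, adjusted p = 0.0143) and Spearman's rho was -0.73 (permutation p = 0.00092, adjusted p = 0.0092) over 18 libraries. For RA, r was -0.62 (permutation p = 0.00566, adjusted p = 0.0283) and rho was -0.67 (permutation p = 0.00347, adjusted p = 0.0173). Without the 2 libraries farthest from the median opsin level, r was -0.88 for RB and -0.85 for RA. The other 8 relations, those of males included, did not pass after adjustment. Among them, fruitless RE in females had r of -0.36 and rho of -0.50 (permutation adjusted p = 0.393 and 0.119). The relation was not computed for other transcripts, so no share of all transcripts can be set beside these.

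**Figure D4:**
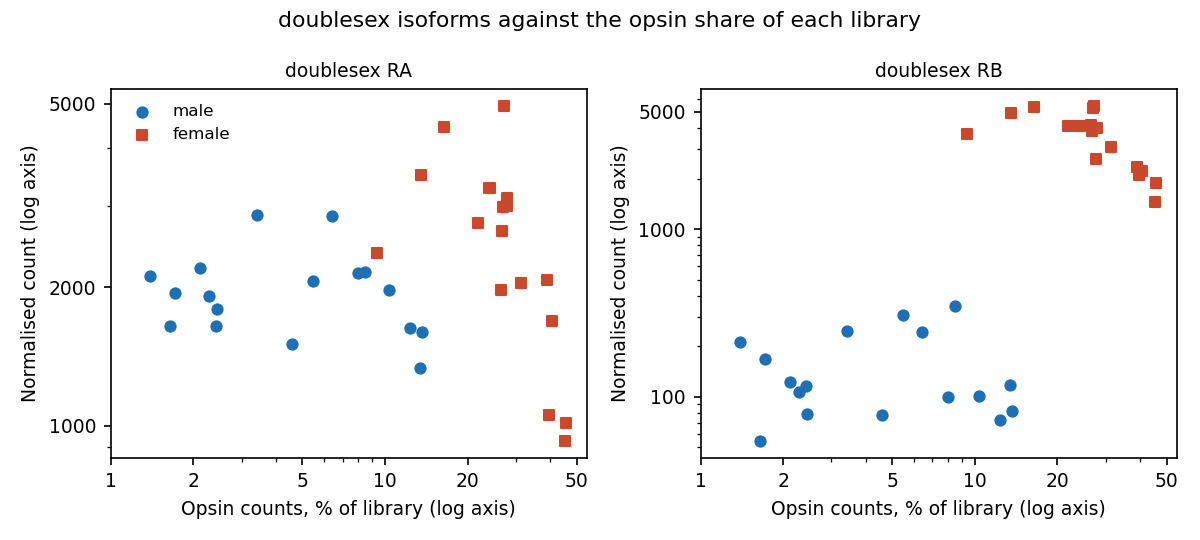
Normalised counts (log axis) of doublesex RA (left) and RB (right) against the opsin share of all counts (%, log axis), with 1 point per library, males as circles and females as squares. Male libraries lay at opsin shares of 1.39% to 13.7%, and among female libraries both isoforms were lower where the opsin share was higher (r = -0.62 for RA and -0.69 for RB).

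With the opsin level as a further covariate, all 4 called transcripts kept their call and direction. The log2 fold change of males over females was then -5.13 for doublesex RB, 1.17 for fruitless RC, 1.06 for fruitless RE and 0.85 for femaleless (edgeR quasi-likelihood adjusted p from 4.16e-09 to 0.0102). RA of doublesex was lower in males in that model, at -0.94 (edgeR adjusted p = 0.0220). With the covariate, 3967 transcripts were called in all, against 8664 without it. The part of eye tissue in the level of each doublesex isoform was not tested beyond this.

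**Figure D5:**
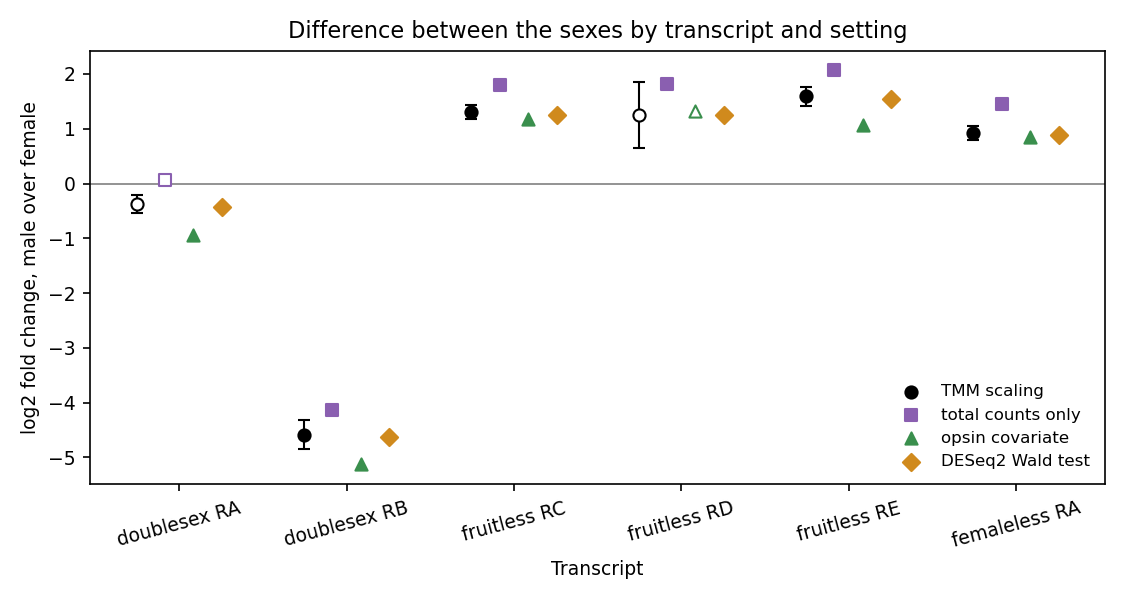
Log2 fold change of males over females for the 6 tested transcripts under 4 settings, with filled symbols for an adjusted p under 0.05, open symbols otherwise, and the standard error as a bar for TMM scaling. RB of doublesex stayed between -5.13 and -4.13, fruitless RC and RE and femaleless stayed above 0, and doublesex RA alone changed sign, to 0.070 with total counts.

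The members also differed in how they varied among libraries of one group. With the mean of each sex and time point removed, log2 levels of doublesex RA and fruitless RE had a Pearson's r of 0.78 over the 35 libraries, doublesex RA and RB 0.67, doublesex RB and fruitless RE 0.61, and fruitless RC and RE 0.53. Levels of femaleless went with none of them, with r from -0.15 to 0.13. These values are descriptions, since libraries share their depth, their opsin share and reads divided between isoforms. Across the table, the transcript whose residual level was most like that of doublesex RA was AGAP006091-RA (r = 0.93), that most like fruitless RE was AGAP013458-RB (r = 0.90), and that most like femaleless was AGAP011037-RA (r = 0.73, or 0.60 without the female ZT16 replicate 1 library). The files do not pair these identifiers with names.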

How the data were processed

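RNA was amplified as cDNA by PCR, and the authors inspected the reads (FastQC 0.11.9, MultiQC 1.10) and quantified annotated transcripts with Kallisto 0.46.0. They deposited estimated counts for each transcript, not normalized, and reads that fit several isoforms were divided among them. Totals per library are given above. SDs are spreads between libraries, and standard errors and p-values rest on the variation between libraries. Estimated counts were rounded to whole numbers and analysed with R 4.3.3, edgeR 4.0.16 and DESeq2 1.42.0. Descriptive values were computed in Python 3.11.15 (pandas 2.3.3, scipy 1.17.1, numpy 2.4.6).

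The test between the sexes was edgeR's quasi-likelihood F-test (filterByExpr over 12 groups of sex and time, TMM, time point and sex in the model), with Benjamini-Hochberg adjustment over all features tested and a threshold of 0.05. The standard error (SE) is the size of the log2 fold change over √F. The same test gave the time effects within each sex, the interaction and the difference at each time point, and diffSpliceDGE gave isoform use. Counts of a gene were summed over its transcripts. JTK_CYCLE was reserved for members past the time test and was not run. Normalised counts were scaled with size factors from DESeq2 (median of ratios, 35 libraries). No libraries of 1 group were copies of each other, as the chi-square per degree of freedom was 42.3 or more in each of 34 pairs (transcripts with at least 50 counts). The edgeR fits for sex, time (transcripts only), the interaction, the sexes at ZT12 and isoform use were also run on simulated counts. The DESeq2 tests, the time tests of genes and the rankings were not.

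The text names every transcript of the 3 genes, the most similar transcript of 3 members and the 2 transcripts lowest in males beside doublesex RB. Members and lists were chosen with earlier results of these data known. No gene identifier was matched to the RefSeq table (0 matched), so the list of other sex determination genes and the markers other than opsins were not analysed here. Alternatives were another test or scaling, no filter, all 36 libraries, the opsin covariate, the replicate number as a block and libraries left out in turn.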

Additional observations from a re-analysis of the deposited data

Results flagged for a closer look

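The male ZT12 replicate 3 library, which entered none of the comparisons, held more fruitless RNA than any other male library. In CPM (counts scaled to the library total) it had 78.8 of RC, 58.3 of RD and 234 of RE, against at most 18.5, 2.20 and 46.5 in the 17 male libraries used. Summed over isoforms it had 371, against 28.9 to 64.3 (median 43.5). In the same library femaleless was at 2.68 CPM, against 38.5 to 67.0 in the male libraries used. RB made up 3.59% of its doublesex counts, within the male range of 3.20% to 13.9%, and doublesex RA was at 206 CPM, within 113 to 242. The authors discarded this library after an early principal component analysis of the counts. They also described it as of low quality, because mechanosensory genes that insects express strongly in the Johnston's organ were very low in it. This is 1 library with no replicate, and the source of these values was not tested.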

How the results depend on the processing

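The calls of doublesex RB, fruitless RC, fruitless RE, femaleless and the 3 genes between the sexes held under all 7 alternatives and all 38 ways of leaving out libraries. Log2 fold changes of males over females ran over the alternatives from -5.13 to -4.13 for doublesex RB, 1.17 to 1.81 for RC, 1.06 to 2.06 for RE and 0.85 to 1.45 for femaleless. The calls of doublesex RA and fruitless RD depended on the setting. RA was called with DESeq2 (-0.42), RLE size factors (-0.42) and the opsin covariate (-0.94), and was at 0.070 with total counts. Total counts also turned its sign at ZT0 (0.20), ZT4 (0.17), ZT8 (0.30), ZT12 (0.078) and ZT20 (0.022). Leaving out libraries moved RA between -0.56 and -0.21, and its call changed in 20 of 38 cases (adjusted p from 0.00602 to 0.407). RD was called with DESeq2 (1.25), total counts (1.81) and all 36 libraries (2.42), and ran from 0.98 to 1.41 with libraries left out, where it was called only without male ZT12 replicate 2. The cause was not tested.

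Relative to the gene, the log2 fold change of fruitless RD turned to 0.36 with all 36 libraries, and with the opsin covariate RC was at 0.048, RD at 0.15 and RE at -0.026, with none called. That covariate left 3967 transcripts and 3735 genes that differed between the sexes and 212 genes with a difference in isoform use. Calls over time in males were 633 with DESeq2's likelihood ratio test and 126 with all 36 libraries, and in females 650 with that likelihood ratio test, with 0 members in any of these. The interaction had 82 calls with DESeq2, 3 with total counts, 2 with the opsin covariate and 0 with the replicate block. Without 1 replicate number each, calls ran from 11 to 41 over time in males, 10 to 20 in females and 0 to 2 for the interaction. At single time points, leaving out replicates leaves 2 libraries or fewer per group, and members called ran from 3 to 5 at ZT0, 1 to 3 at ZT4, 1 to 4 at ZT8, 2 to 3 at ZT12, 1 to 3 at ZT16 and 2 to 3 at ZT20. Without replicate 1, doublesex RA at ZT8 was at 0.27, and without replicate 2, femaleless at ZT16 was at -0.0040. Without female ZT16 replicate 1 alone, chosen after seeing the data, it was at 1.05.

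Male and female libraries with the same replicate number showed little correlation, which cannot tell whether they were handled together. Over 17 male and female pairs the correlation of their deviations had a median of 0.04 (-0.18 to 0.25) and was over 0.1 in 6. With the replicate block 8814 transcripts differed between the sexes, doublesex RB was at -4.66, RA at -0.33, fruitless RC at 1.31, RD at 1.27, RE at 1.61 and femaleless at 0.94, and no call of a member changed. Low counts limit what can be said of fruitless RD.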
